A study of Mus musculus with 32 samples.

Results

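The genes described here are 10 inflammatory cytokine genes chosen by symbol. They are the IL-1 ligands Il1a and Il1b with their antagonist Il1rn and receptor Il1r1, the IL-6 family ligands Il6, Lif, Osm and Il11, and Tnf and Il10, which act beside them. All 10 had a row among the 39676 genes counted, and all 10 passed the filter on low counts in every comparison. They were measured by RNA sequencing of whole mouse mesothelioma tumors from 32 untreated female mice, 8 in each of 4 groups, which were 8 to 10 weeks old. AB1 cells (500000 per mouse) were given to BALB/c mice and AE17 cells (1000000 per mouse) to C57BL/6 mice, either intrapleurally (IPL, in 200 µL) or subcutaneously (SC, in 100 µL), and tumors were harvested on day 10. Each model is a single cell line in a single inbred strain, and lungs and surrounding tissue had been removed. The comparisons ask whether tumors of the same cells carried different amounts of cytokine RNA in the pleural cavity and under the skin, and whether this differed between the models.

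IL-1α and IL-1β both signal through the receptor encoded by Il1r1. IL-1α is kept inside epithelial and other cells and released on damage, whereas IL-1β is made mainly by activated myeloid cells and is cut to its active form by inflammasome caspases. The product of Il1rn occupies the same receptor without signaling. IL-6, LIF, oncostatin M and IL-11 share the receptor chain gp130, encoded by Il6st, and activate JAK kinases and STAT3. TNF activates NF-κB, and IL-10 restrains cytokine production by macrophages through STAT3. Chronic inflammation around mineral fibers, with release of IL-1β and TNF by macrophages, is a known part of the origin of human mesothelioma.

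The 10 genes are all protein coding, and 2 pairs of them are neighbors (GENCODE M21, GRCm38). Il1a (chr2:129299610-129309972) and Il1b (chr2:129364570-129371139) lie on the minus strand of chromosome 2 with 54597 bases between them, and Osm (chr11:4236420-4241026) and Lif (chr11:4257557-4272514) lie on the plus strand of chromosome 11 with 16530 bases between them. Il1rn (chr2:24336853-24351494) lies elsewhere on chromosome 2, and Il1r1 (chr1:40225080-40317257) and Il10 (chr1:131019845-131024974) lie far apart on chromosome 1. Il6 (chr5:30013114-30019981), Il11 (chr7:4772373-4782859) and Tnf (chr17:35199381-35202007) are the only members on their chromosomes. The 250 bases before the transcription start are shown for Il1a, the member that differed most between sites in AB1, for its neighbor Il1b, and for Il6, the member whose site difference was the smallest in size in both models. They were read from RefSeq on GRCm38.p6, which held promoter windows of 8 of the 10 members, and run 5′ to 3′ on the strand of the gene: Il1a at chr2:129309973-129310222, Il1b at chr2:129371140-129371389 and Il6 at chr5:30012864-30013113. Capitals mark matches to TGANTCA, the AP-1 motif, or to GGGNNTTTC, an NF-κB motif, searched on both strands.
Il1a: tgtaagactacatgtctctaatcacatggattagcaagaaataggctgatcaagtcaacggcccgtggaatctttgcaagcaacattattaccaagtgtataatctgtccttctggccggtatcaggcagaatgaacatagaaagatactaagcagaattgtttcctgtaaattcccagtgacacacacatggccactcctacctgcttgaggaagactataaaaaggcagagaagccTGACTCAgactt
Il1b: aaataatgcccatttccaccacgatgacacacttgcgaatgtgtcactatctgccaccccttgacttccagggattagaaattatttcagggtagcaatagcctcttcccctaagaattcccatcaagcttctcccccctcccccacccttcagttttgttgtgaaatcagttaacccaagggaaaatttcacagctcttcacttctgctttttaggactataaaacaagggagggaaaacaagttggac
Il6: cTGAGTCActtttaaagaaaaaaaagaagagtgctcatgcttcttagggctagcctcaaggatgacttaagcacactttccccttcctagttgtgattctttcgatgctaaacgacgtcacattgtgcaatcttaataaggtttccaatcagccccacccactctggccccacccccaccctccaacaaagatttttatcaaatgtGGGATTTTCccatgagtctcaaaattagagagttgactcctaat
The windows of Il1a and Il6 each held 1 AP-1 match, which 6.749% of all 32851 RefSeq promoter windows of this length held, and that of Il6 also held 1 NF-κB match, which 3.723% held. The window of Il1b held neither. Both Il1a and Il1b carried the TATA box letters TATAAA, searched on the gene's strand, at 32 and 31 bases before the start, and 7.592% of all windows carried them anywhere. These are matches of letters only, and no binding was measured.

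Libraries held between 15432258 and 20649645 counts on genes per tumor (median 17230191). The column headers named 3 sequencing lanes: all 8 AB1 IPL tumors were in lane 3, AB1 SC tumors in lanes 2 (6 tumors) and 3 (2 tumors), AE17 IPL tumors in lanes 2 (5 tumors) and 1 (3 tumors), and all 8 AE17 SC tumors in lane 1, so that site and lane could be separated only through the lanes that held both sites. Of the markers of mesothelioma, Pdpn was at group means of 86.3 to 170.4 CPM (counts scaled to the library's size after TMM normalization), Wt1 at 0.104 to 1.89 and Calb2 at 0.0222 to 0.794. The mesothelial genes Upk3b and Lrrn4 had medians of 1.86 and 1.94 CPM in AE17 IPL tumors, 0.135 and 0.108 CPM in AB1 IPL tumors, and at most 0.0608 CPM in the SC groups. In AB1 IPL, Il1a rested on few counts (5 to 29 per tumor), as did Il10 (6 to 15). One tumor stood apart: AB1 IPL replicate 2 had the highest level of the 8 AB1 IPL tumors for 6 of the 10 members. Its macrophage and monocyte markers (mean log2 CPM 7.77) were above those of the other 7 (6.97 to 7.39), its mesothelial markers were higher (3.77 against -0.838 to 0.441), and its skeletal muscle markers were lower (2.68 against 5.46 to 8.64). Upk3b was at 31.4 CPM in it and at most 0.465 CPM in the other 7. B and plasma cell (5.95 against 4.39 in the next), fibroblast (10.2 against 9.75), mast cell (3.78 against 3.61), endothelial (4.79 against 4.73) and keratinocyte markers (-1.06 against -1.67) were also highest in it, and cardiac muscle markers were lowest (-0.989 against -0.885). The part of these in its cytokine levels was not tested, and the differences of the 10 genes between sites in AB1 are given with and without it.

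**Figure D1:**
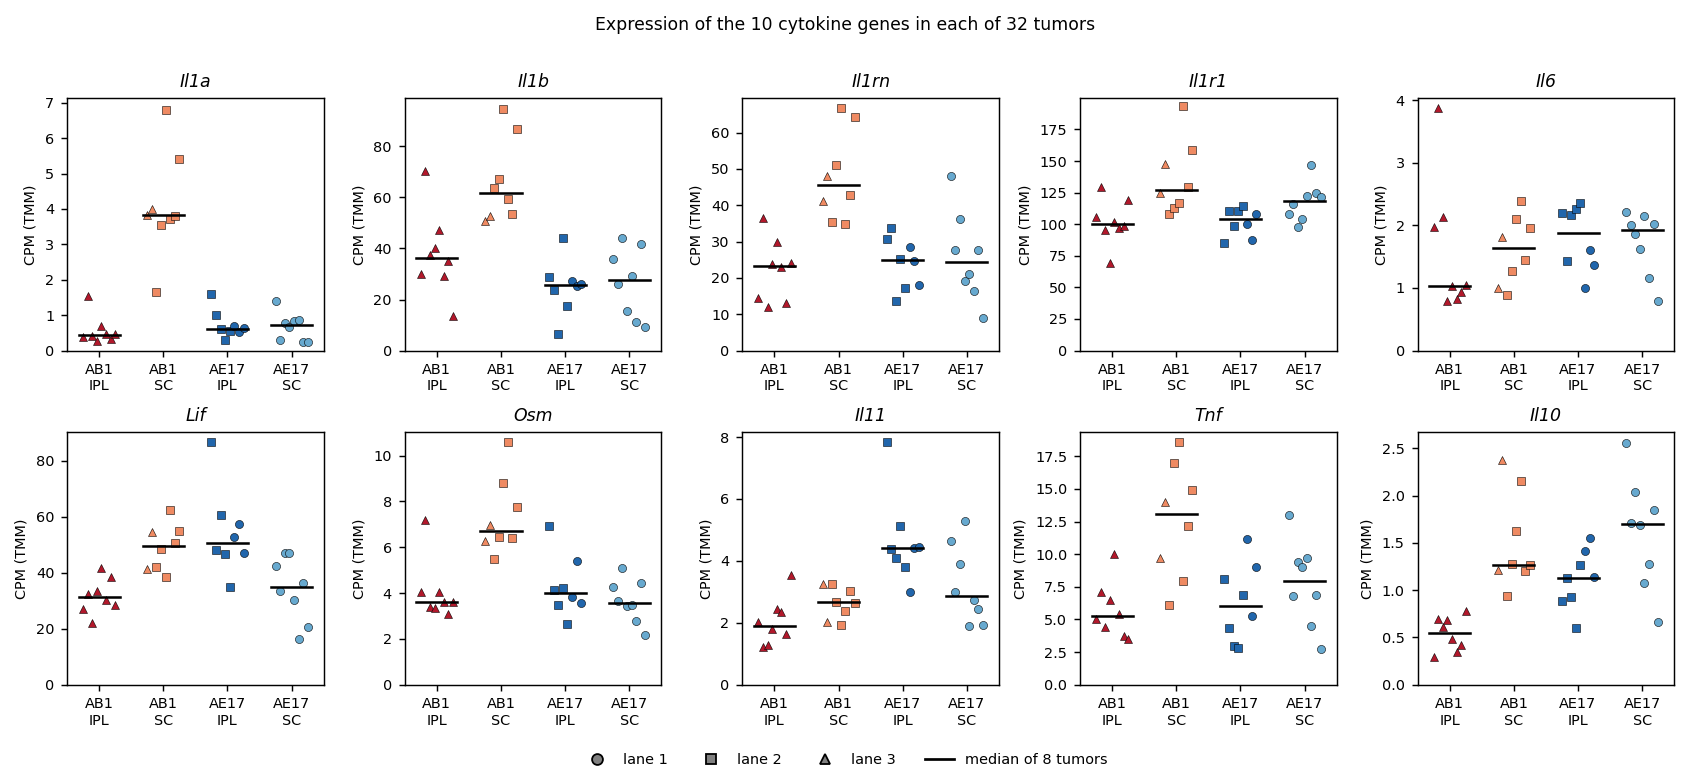
Levels of the 10 genes in each of the 32 tumors, 1 panel per gene, with CPM after TMM normalization on linear axes that start at 0; point shapes mark the sequencing lane and black lines the median of 8 tumors. Il1a separates AB1 SC tumors (1.65 to 6.81 CPM) from the other 3 groups (0.238 to 1.60 CPM).

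Per kilobase of exon, Il1b and Il1r1 had the highest group medians, between 13.5 and 32.4 CPM per kilobase, followed by Lif, between 7.21 and 11.6. Il1a, Il6 and Il10 had the lowest medians in every group but AB1 SC, where Il11 was below Il1a, and lay between 0.221 and 1.93 CPM per kilobase. The receptor Il1r1 varied least among tumors in 3 of the 4 groups, with a coefficient of variation between 10.7% and 21.2% over all 4, and Il1a the most in AB1 IPL, at 72.2%. The ratio of Il1b to Il1a per kilobase was 29.4 to 158.0 in AB1 IPL (median 73.9) and 13.7 to 40.1 in AB1 SC (median 15.5), and the ranges overlapped. The medians of this ratio were 36.7 in AE17 IPL and 38.2 in AE17 SC. The antagonist ran below the ligand throughout, with median ratios of Il1rn to Il1b per kilobase of 0.192 in AB1 IPL, 0.259 in AB1 SC, 0.350 in AE17 IPL and 0.349 in AE17 SC.

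In the AB1 model, 8 of the 10 genes were lower in IPL than in SC tumors and none was higher (edgeR quasi-likelihood test, adjusted over 14645 genes). Over all genes tested, 10.7% were lower and 12.3% were higher. The median log2 fold change of the 10 genes was -0.85, beside -0.0023 over all genes. The IL-1 ligand Il1a fell the most, 7.20-fold, and Il10, Tnf and Il1rn fell by more than the others, between 2.20-fold and 2.81-fold. In 2 of the 10 genes, Il1a and Il10, every IPL tumor was below every SC tumor, which held for 2.53% of all genes tested. In bulk tumors, fewer cells of a type and less RNA per cell cannot be told apart.

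In AB1 IPL tumors Il1a was at 0.263 to 1.54 CPM with a median of 0.437, and in AB1 SC tumors at 1.65 to 6.81 CPM with a median of 3.82. The 2 groups did not overlap, and the highest IPL tumor was AB1 IPL replicate 2. For Il1a, the log2 fold change was -2.85 (SE 0.335, adjusted p = 2.6e-05), and without that tumor it was -3.23.
Its neighbor Il1b ranged from 13.4 to 70.2 CPM in IPL tumors (median 36.3) and from 50.9 to 94.6 CPM in SC tumors (median 61.7). In 7 of 8 IPL tumors Il1b was below every SC tumor, and replicate 2 was the exception. Il1b had a log2 fold change of -0.82 (SE 0.238, adjusted p = 0.0185), and of -0.99 without replicate 2.
The antagonist Il1rn ranged from 12.1 to 36.6 CPM in IPL tumors (median 23.4) and from 34.9 to 66.6 CPM in SC tumors (median 45.5). The groups overlapped through a single IPL tumor. Il1rn had a log2 fold change of -1.14 (SE 0.218, adjusted p = 0.0012). The receptor Il1r1, which was found at 69.1 to 129.5 CPM in IPL tumors (median 100.1) and at 108.2 to 193.7 CPM in SC tumors (median 127.3), overlapped between the sites. Its log2 fold change of -0.44 (SE 0.130, adjusted p = 0.0209) was the smallest of those called, and without AB1 SC replicate 6 its adjusted p was 0.0501.

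Among the IL-6 family ligands, Lif and Osm fell in AB1 IPL tumors, while Il6 and Il11 were not called. Lif, best known for keeping mouse embryonic stem cells undifferentiated, ranged from 21.9 to 41.6 CPM in IPL tumors (median 31.4) and from 38.5 to 62.3 CPM in SC tumors (median 49.6). Of 8 IPL tumors, 7 were below every SC tumor, and the log2 fold change was -0.65 (SE 0.126, adjusted p = 0.0013). Osm, which encodes a product of macrophages and neutrophils, ranged from 3.07 to 7.18 CPM in IPL tumors (median 3.61) and from 5.48 to 10.6 CPM in SC tumors (median 6.71). Replicate 2 alone overlapped the SC tumors. The log2 fold change of Osm was -0.87 (SE 0.178, adjusted p = 0.0018), and without replicate 2 it was -1.03.
Il6 ranged from 0.788 to 3.88 CPM in IPL tumors (median 1.04) and from 0.883 to 2.39 CPM in SC tumors (median 1.63), with replicate 2 again the highest. For Il6, the log2 fold change was -0.04 (95% interval -0.74 to 0.66, adjusted p = 0.943), and without replicate 2 it was -0.35 (adjusted p = 0.395). Il11 ranged from 1.22 to 3.55 CPM in IPL tumors (median 1.91) and from 1.92 to 3.26 CPM in SC tumors (median 2.66). For Il11 it was -0.40 (95% interval -0.83 to 0.030, adjusted p = 0.173), and it passed the threshold without AB1 IPL replicate 8 (log2 fold change -0.56, adjusted p = 0.0325).

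In AB1 IPL tumors Tnf was at 3.50 to 10.0 CPM with a median of 5.24, and in AB1 SC tumors at 6.12 to 18.6 CPM with a median of 13.1. The groups overlapped, and every IPL tumor was below the SC median. Tnf fell with a log2 fold change of -1.15 (SE 0.245, adjusted p = 0.0026). Il10 ranged from 0.297 to 0.783 CPM in IPL tumors (median 0.549) and from 0.942 to 2.37 CPM in SC tumors (median 1.27). The groups did not overlap, and Il10 fell with a log2 fold change of -1.49 (SE 0.236, adjusted p = 0.00028). The genes that fell thus included both IL-1 ligands and Tnf as well as the antagonist Il1rn and the restraining cytokine Il10. Without replicate 2 the same 8 genes were called, and the log2 fold changes not given above were -1.26 for Il1rn, -0.48 for Il1r1, -0.63 for Lif, -0.30 for Il11, -1.18 for Tnf and -1.53 for Il10.

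Fewer calls were made once the lane was included, over all genes as well as over the 10. With the lane as a covariate, 2.64% of all genes were called in either direction, against 12.3% higher and 10.7% lower without it, and 2 of the 10 genes were called, Il1a (log2 fold change -2.78) and Il10 (-1.74). Of those no longer called, Tnf was at -1.07 (SE 0.369), Il1rn at -1.03 (SE 0.328) and Osm at -0.72 (SE 0.272). Lif was at -0.62 (SE 0.196), Il1b at -0.47 (SE 0.359) and Il1r1 at -0.43 (SE 0.206). Each of these SEs was larger than without the lane, and the part of the lane itself in the lost calls was not tested. Within lane 3 alone, 8 IPL against 2 SC tumors, 1.06% of all genes were called and 1 of the 10, Il1a (-2.83, adjusted p = 0.0223). The within-lane log2 fold changes of the others were -1.78 for Il10, -1.12 for Tnf, -1.08 for Il1rn, -0.77 for Osm, -0.66 for Lif, -0.52 for Il1b, -0.48 for Il1r1, -0.43 for Il11 and 0.10 for Il6. All but that of Il6 were negative.

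**Figure D2:**
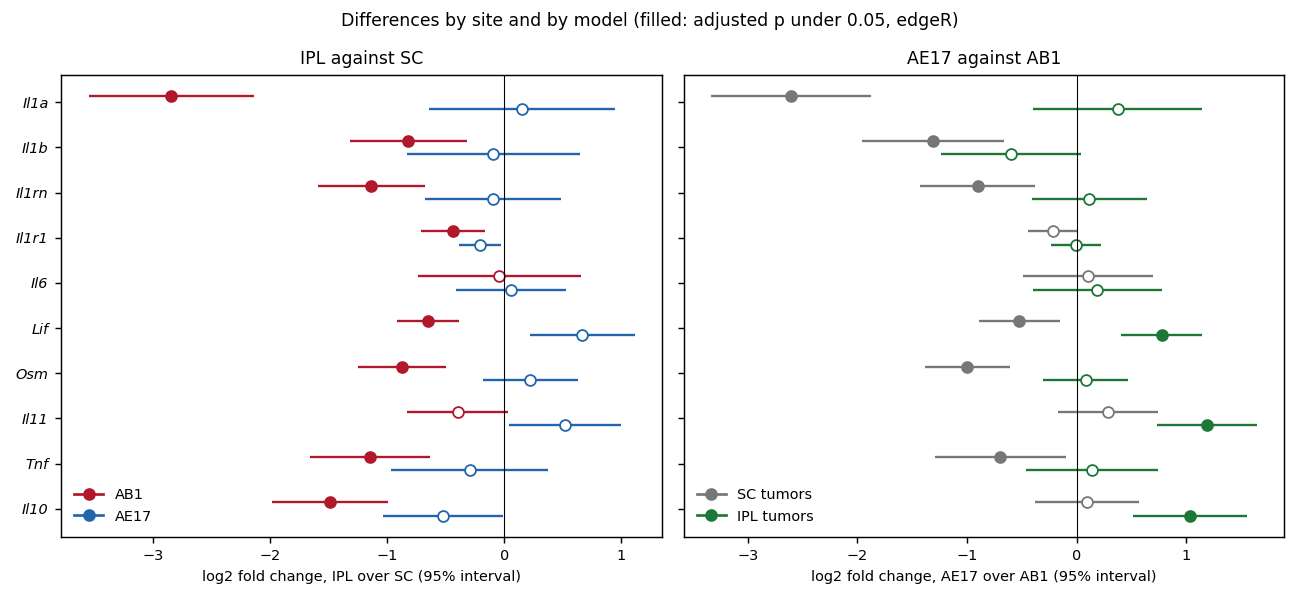
Log2 fold changes with 95% intervals, IPL over SC in the left panel (AB1 red, AE17 blue) and AE17 over AB1 in the right panel (SC tumors grey, IPL tumors green); filled points have an adjusted p under 0.05 (edgeR). All 8 filled points in the left panel belong to AB1 and lie below 0.

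Markers of cell types moved with the site in AB1. All 7 T cell markers tested fell, and their summed level ranged from 18.7 to 82.7 CPM in IPL and from 91.8 to 172.9 CPM in SC tumors. All 5 mast cell markers fell (27.4 to 177.7 against 212.2 to 476.2 CPM), as did 5 of 10 macrophage and monocyte markers (1792 to 3515 against 2594 to 3872 CPM) and 4 of 8 dendritic cell markers. Of 7 neutrophil markers tested, 3 rose (S100a8, S100a9 and Ltf) and Csf3r fell, with sums of 80.9 to 825.0 against 133.4 to 191.0 CPM. Skeletal muscle markers rose in 9 of 10 cases (118.8 to 5222 against 55.6 to 537.9 CPM). Fibroblast markers rose in 6 of 7 cases, and B and plasma cell markers in 5 of 5. Keratinocytes, which are known to store IL-1α, had markers at low levels at both sites (2.66 to 7.44 against 1.63 to 3.85 CPM), with Dsg1a at 0, and of 3 tested 1 rose, Trp63 (log2 fold change 1.001, adjusted p = 0.0166). The part of any of these markers in the lower cytokine levels was not tested.

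In the AE17 model, none of the 10 genes was called between IPL and SC tumors by edgeR (14668 genes tested, of which 2.60% were higher and 3.13% lower). At an unadjusted p under 0.05 there were 4, beside 25.2% of all genes, and DESeq2 called 1, Lif. The median log2 fold change of the 10 genes was -0.017, beside 0.0043 over all genes. In AE17 IPL tumors Lif was at 34.8 to 86.8 CPM with a median of 50.5, and in AE17 SC tumors at 16.5 to 47.2 CPM with a median of 34.8. In 5 of 8 IPL tumors Lif was above every SC tumor, a direction opposite to AB1. Lif had a log2 fold change of 0.67 (SE 0.211, adjusted p = 0.0688), and one of 0.62 within lane 1 alone, 3 IPL against 8 SC tumors (adjusted p = 0.330), where 0.0911% of all genes were called. Leaving out AE17 IPL replicate 5, AE17 SC replicate 1 or AE17 SC replicate 3 brought Lif past the threshold, with a lowest adjusted p of 0.0401.

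Il11, a ligand linked to fibroblast activation, was at 3.00 to 7.83 CPM in AE17 IPL tumors, with a median of 4.41, and at 1.90 to 5.30 CPM in AE17 SC tumors, with a median of 2.86. All 8 IPL tumors were above the SC median. Il11 had a log2 fold change of 0.52 (adjusted p = 0.167), and of 0.29 within lane 1.
Il10 ranged from 0.596 to 1.55 CPM in IPL tumors (median 1.13) and from 0.667 to 2.56 CPM in SC tumors (median 1.70), and all 8 IPL tumors were below the SC median. Its log2 fold change was -0.52 (adjusted p = 0.191), and -0.24 within lane 1. Il1r1 was at medians of 104.0 CPM in IPL and 118.7 CPM in SC tumors, with a log2 fold change of -0.21 (adjusted p = 0.146) and -0.26 within lane 1.
The IL-1 ligands were at close levels at both sites in AE17, with wide intervals. Il1a ranged from 0.298 to 1.60 CPM in IPL tumors (median 0.622) and from 0.238 to 1.396 CPM in SC tumors (median 0.720), and its log2 fold change was 0.15 (95% interval -0.64 to 0.94). Il1b had medians of 25.7 CPM in IPL and 27.5 CPM in SC tumors and a log2 fold change of -0.09 (95% interval -0.83 to 0.65). The interval of Il1a did not reach its AB1 value of -2.85, whereas that of Il1b included its AB1 value of -0.82. Il1rn (-0.10), Osm (0.22), Tnf (-0.29) and Il6 (0.06) had log2 fold changes with adjusted p between 0.499 and 0.900, and their groups overlapped.

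The difference between the site effects was tested in a single fit of the 32 tumors. It was called for 6 of the 10 genes, each with a more positive IPL over SC change in AE17 than in AB1, a call made in that direction for 8.62% of 15681 genes. The difference in log2 fold change was 2.98 for Il1a (SE 0.520, adjusted p = 0.00024), 1.299 for Lif (SE 0.256, adjusted p = 0.00082) and 1.08 for Osm (SE 0.268, adjusted p = 0.0050). It was 1.02 for Il1rn (adjusted p = 0.0440), 0.95 for Il10 (adjusted p = 0.0484) and 0.90 for Il11 (adjusted p = 0.0404), the last 3 being close to the threshold. Leaving out single tumors left between 3 and 6 genes called, and Il1a, Lif and Osm were called in all 32 such fits. Without AB1 IPL replicate 2, 5 genes were called and Il11 was not (0.82, adjusted p = 0.0613), and the difference for Il6 was 0.42 (adjusted p = 0.460). For Tnf (0.84, adjusted p = 0.157), Il1b (0.71, adjusted p = 0.274), Il1r1 (0.21) and Il6 (0.08) a difference between models was not shown. With the lane as a covariate, the share of all genes called in either direction went from 20.5% to 0.746%. None of the 10 genes was then called, and the differences for Il1a and Lif were 2.66 (adjusted p = 0.0750) and 1.22 (adjusted p = 0.0920).

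Between the models, 6 of the 10 genes were lower in AE17 than in AB1 among SC tumors, where 28.6% of all genes tested were lower. Model, strain, number of cells and lane changed together and cannot be told apart. At neither site did the models share a lane. With the lane as a covariate, its effect was estimated from the AB1 SC and AE17 IPL tumors, the groups split between lanes. Among SC tumors, the log2 fold change, AE17 over AB1, was -2.61 for Il1a (SE 0.357, adjusted p = 1.8e-07), -1.31 for Il1b (SE 0.316, adjusted p = 0.00068) and -0.999 for Osm (SE 0.190, adjusted p = 3.7e-05). Il1rn (-0.91), Tnf (-0.70) and Lif (-0.52) were also lower, and with the lane as a covariate Il1rn (-0.92, adjusted p = 0.143) and Lif (-0.45, adjusted p = 0.317) were no longer called. The share of all genes called in either direction went from 58.3% to 33.6% with it. Among IPL tumors, 3 of the 10 genes were higher in AE17, where 31.8% of all genes tested were higher. These were Il11 (1.19, SE 0.224, adjusted p = 2.9e-05), Il10 (1.04, SE 0.255, adjusted p = 0.00072) and Lif (0.78, SE 0.181, adjusted p = 0.00041), and of these Il11 alone was called with the lane as a covariate, where Il10 was at 1.17 (adjusted p = 0.0513) and Lif at 0.76 (adjusted p = 0.1095). The share of all genes called in either direction went there from 63.4% to 31.9%. Without AB1 IPL replicate 2 the same 3 genes were called. The count of 3 among IPL tumors is close to the share over all genes.

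Ordered by median, Il1a was highest in AB1 SC, and the other 3 groups overlapped. Il1b, Il1rn, Osm and Tnf also had their highest medians in AB1 SC (61.7, 45.5, 6.71 and 13.1 CPM), and the other 3 groups overlapped with each other at lower medians. Lif had its highest medians in AE17 IPL (50.5 CPM) and AB1 SC (49.6 CPM), which overlapped, and its lowest in AB1 IPL (31.4 CPM). Il11 was highest in AE17 IPL (median 4.41 CPM) and lowest in AB1 IPL (median 1.91 CPM), and these overlapped through their extremes. Il10 was highest in AE17 SC (median 1.70 CPM), followed by AB1 SC, AE17 IPL and AB1 IPL, and neighbors in this order overlapped. Il1r1 and Il6 had ranges that overlapped in all 4 groups.

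Other genes of these pathways, listed by role, were mostly lower in IPL tumors where they were called in AB1, against a share of 10.7% lower over all genes. Of 7 tested IL-1 family ligands and processing genes, 4 fell and none rose in AB1. Il33, an alarmin of the same family, fell from a mean of 51.3 ± 17.5 CPM in SC to 22.9 ± 22.5 CPM in IPL tumors (SD, n = 8; log2 fold change -1.18, adjusted p = 0.0357), and the inflammasome genes Casp4 (-0.66), Nlrp3 (-0.38) and Nlrp1b (-0.37) fell by less. None of the 7 was called in AE17. Of 15 receptors and adaptors, 8 fell and none rose in AB1. These included Il18r1, a chain of the IL-18 receptor (-2.03), Il1rl1, the IL-33 receptor (-1.36), the decoy receptor Il1r2 (-1.23) and Il18bp, which binds IL-18 (-1.04). In AE17, 2 of the 15 fell, Il1rl1 (-0.71) and Il1rl2 (-0.43), the receptor for IL-36. Decoy and binding proteins were thus among those that fell, beside signaling chains.

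Of 9 tested IL-6 family ligands and receptors, 2 fell in AB1. Clcf1, which encodes cardiotrophin-like cytokine, fell in AB1 (-0.28, adjusted p = 0.0429) and in AE17 (-0.26, adjusted p = 0.0338), and Il27, a subunit of IL-27, fell in AB1 (-1.21). The shared receptor Il6st was at group means of 213.5 to 300.1 CPM and was not called (-0.11 in AB1 and -0.10 in AE17). Of 12 JAK and STAT3 pathway genes, 1 rose (Pias3, an inhibitor of STAT3, 0.24) and 4 fell in AB1, among them the kinase gene Pim1 (-0.82) and the JAK family kinase gene Tyk2 (-0.26). Socs3, a target and inhibitor of STAT3, was at 93.3 CPM in IPL and 108.8 CPM in SC tumors (adjusted p = 0.219). In AE17 the transcription factor gene Cebpb alone was called of the 12, and rose (0.60, adjusted p = 0.0228).

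Of 13 receptors and NF-κB feedback genes for TNF and IL-10, 8 fell and none rose in AB1, and none was called in AE17. The IL-10 receptor chain Il10ra fell (-0.85, adjusted p = 0.00090), as did the NF-κB target and inhibitor Tnfaip3 (-0.73), Birc3 (-0.70) and Relb (-0.57). Of 20 tested inflammatory response genes, 11 fell and 2 rose in AB1. Lcn2, a neutrophil and epithelial secretory protein, rose from 1.25 ± 0.900 CPM in SC to 19.9 ± 20.1 CPM in IPL tumors (log2 fold change 3.96, adjusted p = 0.0034), and the collagenase gene Mmp13 rose as well (3.55). The stromelysin gene Mmp3 (-2.64) and Nos2, which makes nitric oxide in activated macrophages (-2.33), fell. In AE17, Mmp3 fell by a like amount (-2.35, adjusted p = 0.0026), Ptges, a prostaglandin E synthase, fell (-1.05, adjusted p = 0.0477), and Csf3, which was named after its values were seen, rose (1.28, adjusted p = 0.0396) at group means under 1.36 CPM. The medians of the 6 lists in AB1 lay between -0.89 and -0.20, beside -0.0023 for all genes, and in AE17 between -0.075 and 0.24, beside 0.0043.

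**Figure D3:**
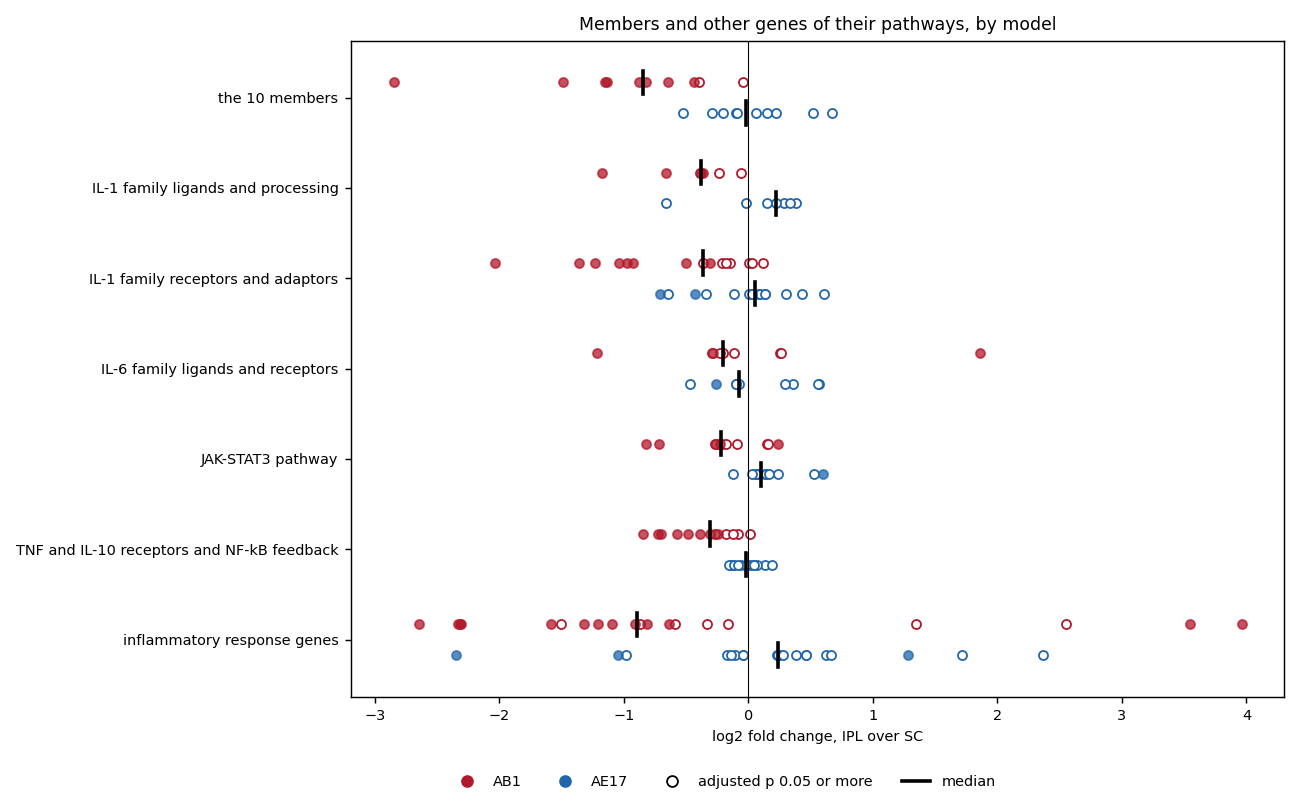
Log2 fold changes, IPL over SC, of the 10 members and of the other tested genes in 6 pathway lists, with AB1 in red and AE17 in blue; filled points have an adjusted p under 0.05 (edgeR) and black bars are medians. In AB1 most filled points lie below 0, and Lcn2 and Mmp13 stand far to the right.

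Among tumors of the same group, several members rose and fell together. With log2 CPM centred within each of the 4 groups, 12 of 45 pairs of members were correlated by Pearson's r over the 32 tumors (100000 permutations within groups, two-sided, adjusted over the 45 pairs), all positively, and 9 of these also by Spearman's rho. Each tumor gave both values from a single library. The antagonist Il1rn went with the ligand Il1b (r = 0.663, permutation p = 0.00030, adjusted p = 0.0034, rho = 0.703), and r was 0.748 without the 2 tumors farthest from the median of Il1b. Il1rn also went with Osm (r = 0.663, adjusted permutation p = 0.0034, rho = 0.674) and Tnf (r = 0.635, adjusted permutation p = 0.0034, rho = 0.581), with r of 0.606 and 0.496 after leaving out 2 tumors. Osm went with Il6 (r = 0.628, rho = 0.553), Il1b (r = 0.607, rho = 0.679) and Lif (r = 0.601, rho = 0.534), with r of 0.443, 0.670 and 0.53 after leaving out 2 tumors, and Il1b went with Tnf (r = 0.540, rho = 0.529, and 0.444). Il1a went with Tnf (r = 0.575, rho = 0.542) and Il1rn (r = 0.560, rho = 0.527) but not by rho with Osm (r = 0.559, rho = 0.438, adjusted permutation p of rho = 0.0801), and r was 0.537, 0.421 and 0.434 after leaving out 2 tumors. Adjusted permutation p of r for these 7 pairs lay between 0.0034 and 0.0138. Neighboring Il1a and Il1b were not a called pair.

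The 2 pairs that Il10 formed, with Il1rn (r = 0.499) and Tnf (r = 0.472), had r of 0.269 and 0.257 without 2 tumors and rest on those tumors. Neither Il1r1 nor Il11 was in a called pair over the 32 tumors, where r pools the models. Some of their pairs had opposite signs within the models. Il1r1 had r of 0.36 with Lif and 0.67 with Osm within AB1, and of -0.874 and -0.681 within AE17. For Il11 with Il1b, r was -0.696 within AB1 and 0.251 within AE17. Centring within group and lane gave r between 0.426 and 0.669 for the 12 pairs. Within AB1 alone, 4 pairs were called and all 4 were among the 12, and within AE17 alone 7 were called, 5 of them among the 12. Il1b with Il1rn had r of 0.390 within AB1 and 0.804 within AE17, and Il6 with Osm 0.815 and 0.443. The difference between the models was not tested.

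The macrophage and monocyte markers gave the most called pairs with members. Of 140 pairs of a member with a list of cell type markers, 10 were called by r and 5 of these also by rho. Osm (r = 0.725, adjusted permutation p = 0.0028, rho = 0.710), Il1b (r = 0.680, adjusted permutation p = 0.0032, rho = 0.656) and Il1rn (r = 0.669, adjusted permutation p = 0.0056, rho = 0.559) went with these markers, with r of 0.754, 0.732 and 0.523 without 2 tumors. By r alone, these markers also went with Il6 (0.641), Tnf (0.595) and Il10 (0.548), and mast cell markers with Il6 (0.551). By rho alone, mast cell markers went with Osm (rho = 0.711, adjusted permutation p = 0.0028) and Il1rn (rho = 0.569, adjusted permutation p = 0.0429), and macrophage and monocyte markers with Lif (rho = 0.560, adjusted permutation p = 0.0429), where r was 0.532, 0.460 and 0.508. T cell markers went with Il1b (r = 0.717, rho = 0.573) and Tnf (r = 0.646, rho = 0.547), and r without 2 tumors was 0.651 and 0.601. Within AB1, r of macrophage and monocyte markers with Osm was 0.797, and within AE17 0.666. No pair with a marker list was called within either model alone, where 16 tumors entered. Skeletal muscle markers ran against Il1a by r (-0.555, adjusted permutation p = 0.0389) and not by rho (-0.361). None of the members was called with the neutrophil markers.

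**Figure D4:**
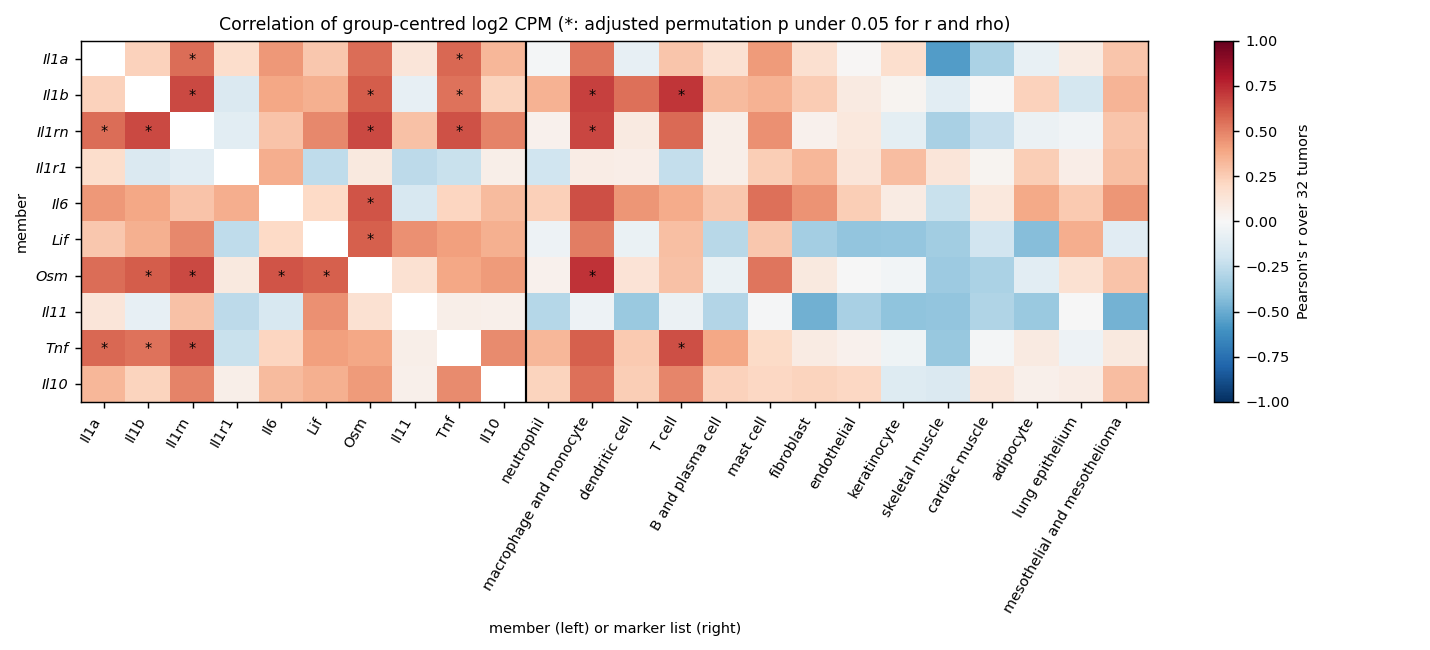
Pearson's r over the 32 tumors between members (left of the line) and between members and mean marker levels of 14 cell types (right), from log2 CPM centred within groups; stars mark adjusted permutation p under 0.05 for both r and rho. Il1b, Il1rn, Osm and Tnf form most of the starred pairs, and Il1r1 and Il11 have none.

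**Figure D5:**
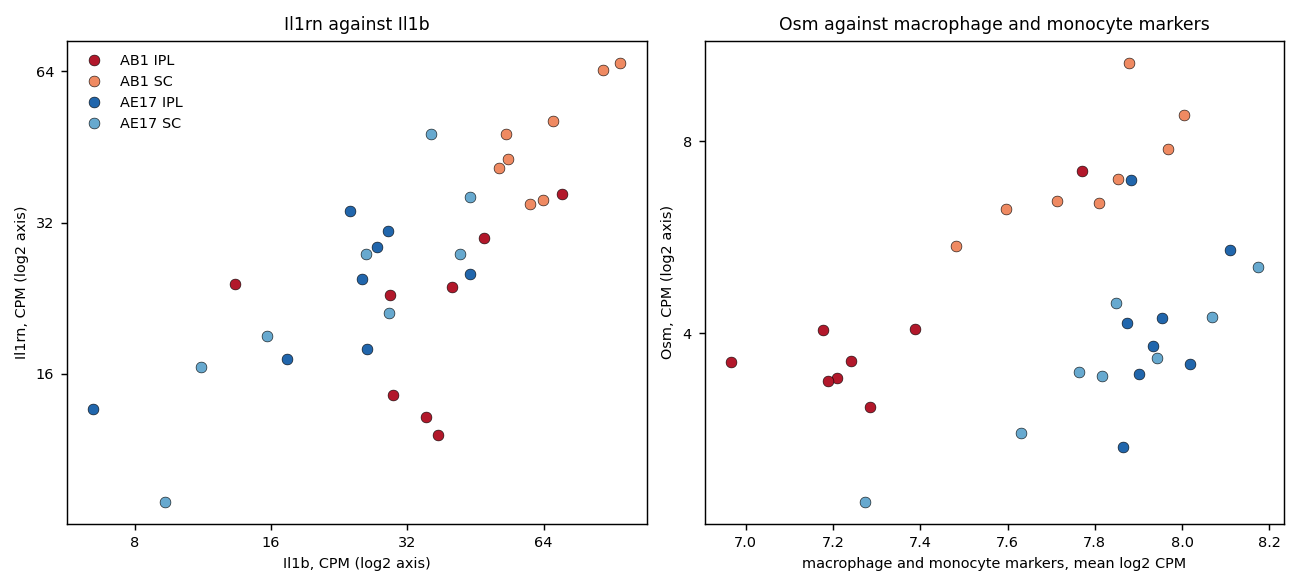
Il1rn against Il1b (left, CPM on log2 axes) and Osm (CPM on a log2 axis) against the mean log2 CPM of macrophage and monocyte markers (right), with 1 point per tumor and colors for the 4 groups. AB1 IPL replicate 2 is the AB1 IPL tumor farthest to the right in the right panel, at 7.77.

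The genes most like each member over the 32 tumors, by Spearman's rho of group-centred log2 CPM among 15681 genes, are given as a description. Il1b was most like Neurl3 (0.839), Nod2, a sensor of bacterial cell walls (0.828), and Ccrl2, a chemerin-binding receptor (0.825). Il1rn was most like Fxyd5 (0.838), Slc15a3 (0.799) and the chemokine gene Cxcl2 (0.792), and Osm was most like Olr1, a receptor for oxidized LDL (0.822), Manba (0.807) and Zbtb8os (0.790). Tnf was most like Psme2b (0.853) and Psme2 (0.839), which share sequence so that reads could be split between them, and M6pr (0.830). Psme2 encodes a proteasome activator subunit. Il1a was most like Pfkp, a glycolysis enzyme gene (0.707), Lgr6 (0.698) and Ccdc71l (0.681), and Il10 was most like Gm5678 (0.705), Sirpa, a receptor of myeloid cells (0.691), and Tmem86a (0.677). Both had lower likeness than the other members.
Il6 was most like Gm4788 (0.782), the kinase gene Map3k8 (0.770) and Ppp1r9a (0.765), and Lif was most like Adgra1 (0.788), Pvr (0.773) and the chemokine receptor gene Ccr1 (0.736). Il1r1 was most like Enpp2 (0.765), Il13ra2 (0.743) and Gm16096 (0.735), and Il11 was most like Pold3 (0.786), Atg9b (0.755) and Knop1 (0.746).

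Overlapping genes took few counts. Il1bos, antisense to Il1b, had 0 to 11 counts per tumor, Gm14023, on the other strand of Il1a, had 1 to 8, and Gm38070, inside Il1r1, had 0 to 3. Whether counting used the strand was not given in the sources used here, so reads of Il1a and Gm14023 cannot be told apart, which matters most where Il1a had 5 to 29 counts.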

How the data were processed

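The authors deposited gene counts, made from 50 bp single-end reads of poly(A) RNA with FastQC, HISAT2 2.0.4 and SummerizeOverlaps without normalization. The methods name the mouse genome as mm11, and whether counting used the strand was not given in the sources used here. Of 39676 identifiers, 39495 matched GENCODE M21 (GRCm38) without version. The 10 members and all lists were chosen with earlier results of these data known. Of 231 listed genes, 197 had a row, 3 of them under an older symbol, and the rest were not analysed here. Counts were tested in R 4.3.3 with edgeR 4.0.16 (filterByExpr, TMM, robust quasi-likelihood F test, two-sided) within each model, and in 1 fit of all 32 tumors for differences between models, with Benjamini-Hochberg adjustment over all genes tested and a threshold of 0.05. CPM are counts scaled to TMM library sizes, and log2 CPM used a prior count of 2. DESeq2 1.42.0 was an alternative. The procedure was tested on simulated data. Replicates were separate mice, and the 112 within-group pairs of libraries all differed by more than counting error. Counts of 3 were taken as the smallest detectable, for counting error only. From each pathway list, the called genes that averaged 1 CPM or more over all tumors were named, at most 4 per list and model by size of change, and for each member the 3 most alike genes. Results for some genes of the lists are not reported here.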

Additional observations from a re-analysis of the deposited data

Results flagged for a closer look

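In 3 genes, the AB1 IPL replicate 2 tumor lay far above the other 7 of its group, by more than Dixon's 95% limit for 8 values. Il1a was at 1.54 CPM there, and the next tumor was at 0.704. Osm was at 7.18 CPM against 4.06, and Il6 at 3.88 CPM against 2.14. In AE17 IPL replicate 1, Il11 was at 7.83 CPM, and the next tumor was at 5.12. These are 4 of 40 gene and group combinations. A rate of about 1 in 20 by chance holds for independent, normally distributed values. The limit was applied here to CPM not on a log scale, and 3 of the 4 flags came from a single tumor.

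The site effect differed between the models for 6 genes by the test of the difference, AE17 minus AB1 on the log2 scale (edgeR). The values were 2.98 for Il1a, 1.299 for Lif, 1.08 for Osm, 1.02 for Il1rn, 0.95 for Il10 and 0.90 for Il11. With the lane as a covariate none of them was called, and the share of all genes called in either direction went from 20.5% to 0.746%.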

How the results depend on the processing

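In AB1, between 7 and 9 members were called as each tumor was left out, without AB1 SC replicate 6 (7) and AB1 IPL replicate 8 (9) at the ends. With the lane as a covariate 2 members were called and within lane 3 alone 1, where 2.64% and 1.06% of all genes were called against 12.3% higher and 10.7% lower without it, and the log2 fold changes of Il1rn (-1.03), Tnf (-1.07) and Lif (-0.62) with the covariate were not past the threshold. In AE17, where no member was called, 1 (Lif) was called by DESeq2, with all 32 tumors in 1 fit and with a replicate block, and between 0 and 1 as tumors were left out. The difference between models held for 6 members, for 3 without a filter on low counts, 0 with the lane as a covariate (0.746% of all genes, against 20.5%) and between 3 and 6 as tumors were left out. AE17 against AB1 in IPL tumors gave 3 members, 1 with the lane as a covariate and 3 to 4 as tumors were left out. In SC tumors it gave 6, and 5 to 6 as tumors were left out, Tnf being lost without AB1 SC replicate 2, 4, 5, 7 or 8 or AE17 SC replicate 2, 6, 7 or 8 (highest adjusted p 0.0922). Pairs of members fell from 12 to 4 in AB1 alone and 7 in AE17 alone, and pairs with marker lists from 10 to 0 in each, where fewer tumors entered. At least 10 counts in every tumor removed Il1a and Il10 from the AB1 fit.

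Over all members, comparisons and alternatives, 394 log2 fold changes kept their direction and side of the threshold, 35 lost the call, 8 gained it and 24 turned in sign, these only where the value had not been called. In AB1, Il6 was at 0.15 with the lane as a covariate, 0.10 in lane 3 alone and -0.35 to 0.078 as tumors were left out. In AE17, Il1a was at -0.11, -0.12 (lane 1 alone) and -0.11 to 0.39, and Il6 at -0.38, -0.38 and -0.055 to 0.14. Tnf was there at 0.13 and 0.12 with the lane, while Il1b ran from -0.27 to 0.053 and Il1rn from -0.23 to 0.092 as tumors were left out. The difference between models for Il6 was -0.54 with the lane and -0.042 to 0.42 as tumors were left out. Between models, Il10 in SC tumors was at -0.32 and -0.037 to 0.22. In IPL tumors with the lane, Il1rn was at -0.017, Il1r1 at 0.021, Osm at -0.11 and Tnf at -0.29, and as tumors were left out Il1r1 ran from -0.068 to 0.054, Osm from -0.051 to 0.25 and Tnf from -0.026 to 0.30. The cause was not tested.

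Replicate numbers were not used as pairs in the main fits, and same-numbered tumors came from different mice. Their correlation was between -0.287 and -0.0027 in AB1 (mean -0.118, against 0.0182 for other numbers). In AE17 it was between -0.227 and 0.271 (mean 0.0725, against -0.0072), and 5 of 8 were over 0.1 (0 in AB1). There 3 of 8 correlated best with their own number (0 in AB1). Whether a number marks a shared batch was not tested. With the number as a block, 8 members were called in AB1, 1 in AE17 and 5 for the difference between models.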
